A study of Mus musculus with 2 samples.

Results

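The early B lymphoid genes examined here are 9 genes taken by symbol from the 23284 genes listed in both libraries: Vpreb1, Igll1, Cd79a, Cd79b, Ebf1, Pax5, Rag1, Rag2 and Dntt. RNA-seq had been carried out on sorted leukemic stem cells from a transplantation model of CML (chronic myeloid leukemia): LSK cells of the bone marrow (lineage marker-negative, Sca-1-positive, c-Kit-high) are transduced with BCR-ABL and green fluorescent protein (GFP) and transplanted with competitor marrow into lethally irradiated C57BL/6SJL recipients, whose own blood cells carry CD45.1. The WT group was 1 library from wild type C57BL/6J donor cells, and the STAP-1 KO group, called KO below, was 1 library from C57BL/6J donor cells with a targeted disruption of the STAP-1 gene. Both groups carried BCR-ABL, used mice of 8 to 14 weeks, and 11 days after the first transplantation the donor-derived LSK cells were sorted as GFP+ and CD45.2+. The number of mice behind each library is not given in the sources used here. The antibodies that marked mouse lineage cells in the study included B220, which B-lineage cells carry, and markers of T, myeloid and erythroid cells. With 1 library per genotype there is no replicate, so every difference below compares these libraries and has no test, and the genotype cannot be told apart from the mice, the sort or the library preparation.

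A B cell is made by rearranging immunoglobulin genes. RAG1 and RAG2 together cut the DNA, and terminal deoxynucleotidyl transferase, encoded by Dntt, adds bases at the joints. Ebf1 and Pax5 encode the transcription factors that specify and fix the B lineage. A pro-B cell that has made a heavy chain pairs it with the surrogate light chain, which is built from the products of Vpreb1 and Igll1, and signals through CD79A and CD79B. Dntt and Rag transcripts are also known from multipotent progenitors that have not chosen the B lineage, a state called lymphoid priming, which normal LSK cells can show.

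The levels are FPKM, fragments scaled to transcript length and to library size. Levels of different genes are compared only roughly, since the ratio of the libraries depended on transcript length and some values are doubtful, as described below. Dntt and Cd79b were the abundant genes of the 9 and both were higher in KO cells, Dntt by 11.4 times and Cd79b by 5.73 times. Rag2 was also higher there, by 6.21 times, at levels below 1 FPKM. Vpreb1, Igll1, Cd79a and Rag1 rested on 9 estimated reads or fewer in each library. Ebf1 and Pax5 were listed at 0 FPKM in both libraries.

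**Figure D1:**
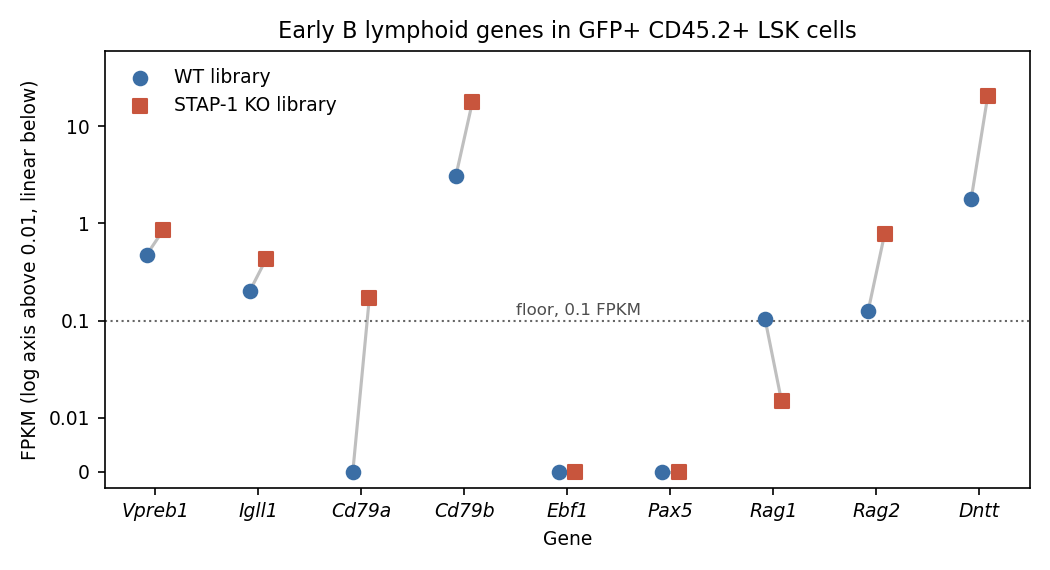
FPKM (vertical axis, logarithmic above 0.01 and linear below) of the 9 genes (horizontal axis) in the WT (circles) and the KO (squares) library, 1 library each, with a dotted line at 0.1 FPKM. Dntt and Cd79b stand above 1 FPKM in both libraries, whereas Ebf1 and Pax5 are at 0 in both.

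To show the regulatory sequence beside these levels, promoters were read from the RefSeq table of GRCm38.p6, which holds 250 bases before to 50 bases after each start site and matched 8 of the 9 genes. On both strands they were searched for CCCNNGGG, a core of the EBF1 motif, and for CAGNTG, an E-box form bound by E proteins such as E2A, which reads CANCTG on the other strand. In these genes no EBF1 match overlapped an E-box match. The EBF1 letters were found in 1 of the 8 genes and in 13.7% of all 32851 promoters, and the E-box letters in 5 of the 8 genes and in 51.4% of all promoters. The promoters printed are those of Dntt (chr19:41029025-41029324, plus strand) and Rag2 (chr2:101624462-101624761, plus strand), the genes with the largest ratios, and of Igll1 (chr16:16863936-16864235, minus strand), which alone held both motifs. Capitals mark the motifs.
Dntt: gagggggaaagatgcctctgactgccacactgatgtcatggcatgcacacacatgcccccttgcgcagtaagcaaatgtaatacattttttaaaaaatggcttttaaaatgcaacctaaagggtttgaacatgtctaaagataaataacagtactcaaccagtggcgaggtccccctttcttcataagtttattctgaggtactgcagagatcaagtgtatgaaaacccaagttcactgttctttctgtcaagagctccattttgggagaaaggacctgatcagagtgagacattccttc
Rag2: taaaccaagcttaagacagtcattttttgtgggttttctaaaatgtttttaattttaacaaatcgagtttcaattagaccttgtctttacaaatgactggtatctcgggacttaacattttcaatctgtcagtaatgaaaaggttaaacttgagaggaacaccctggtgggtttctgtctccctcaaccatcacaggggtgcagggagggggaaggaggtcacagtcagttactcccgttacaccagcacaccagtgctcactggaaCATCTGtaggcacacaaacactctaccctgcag
Igll1: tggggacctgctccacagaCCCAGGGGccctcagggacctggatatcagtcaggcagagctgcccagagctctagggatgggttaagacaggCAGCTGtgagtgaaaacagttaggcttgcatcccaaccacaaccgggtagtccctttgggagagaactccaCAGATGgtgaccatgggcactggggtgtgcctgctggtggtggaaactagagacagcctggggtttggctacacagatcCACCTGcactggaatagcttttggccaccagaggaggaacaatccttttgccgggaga
The Dntt window held neither motif, the Rag2 window 1 E-box and the Igll1 window 1 EBF1 match and 3 E-boxes. Rag1 held 3 E-boxes, Cd79a and Vpreb1 held 1 each, and Ebf1 and Pax5 held none. These matches are letters in a short window and were not measured as binding in these cells.

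How many reads stood behind each value was estimated first, since the files give FPKM only. Low values fell on steps, and among the 912 genes below 0.3 FPKM in both libraries the most frequent ratio, shared by 180 genes, made 1 STAP-1 KO read worth 0.716 of a WT read. From genes with a single annotated transcript the effective depth was 7500000 reads in WT cells and 10470000 reads in KO cells. Estimated reads and their 95% intervals (exact binomial) cover counting error only, not differences between mice, sorts or library preparations, and they use the longest GENCODE M21 transcript, which the deposited values need not have used. The targeted gene, Stap1, had 62.0 FPKM in WT cells and 0.309 FPKM in KO cells. A value of 0 was read with care, since Rpl11 and Rpl26, which every cell uses, were listed at 0 in both libraries and Gapdh had 0.391 and 1.03 FPKM. Of the 75-base windows of their transcripts, 22.8% to 36.4% occur exactly in transcripts of other genes. Whether this sharing gave the low values was not tested.

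A gene was counted as higher or lower if the libraries differed by 2 times or more and each had 0.1 FPKM or more. The fold cut-off follows the study and the floor was added here. Of the 9 genes, 5 could be compared on this rule, and 4 of them (Igll1, Cd79b, Rag2 and Dntt) were higher in KO cells, with none lower. Over all 12507 genes that could be compared, 12.3% were higher and 22.9% were lower. With so few genes, and since a gene absent from a library cannot enter, this count describes the genes and is not a result about B lymphoid genes as a group. Only 3 of the 5, Cd79b, Rag2 and Dntt, reached 10 estimated reads in either library.

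**Figure D2:**
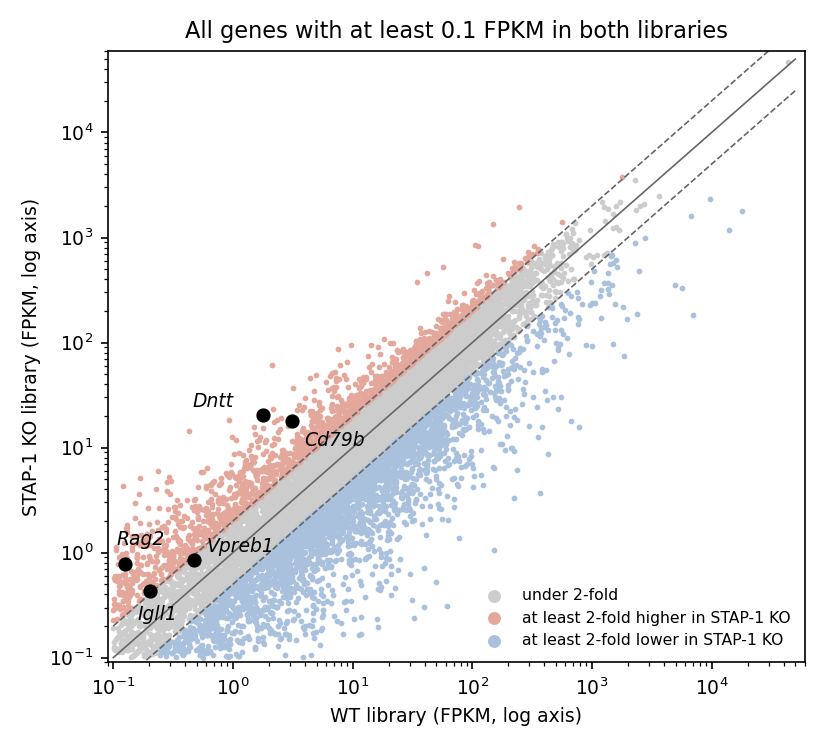
FPKM in KO cells against FPKM in WT cells (both axes logarithmic) for the 12507 genes with at least 0.1 FPKM in both. The solid line marks equal values and the dashed lines a 2-fold difference; black points are the 5 early B lymphoid genes that could be compared, of which Vpreb1 lies inside the dashed lines and the other 4 above them.

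Among the recombination genes, Dntt (mm10 chromosome 19, 41029275 to 41059525, plus strand) had 1.79 FPKM in WT cells and 20.4 FPKM in KO cells. This corresponded to 26 and 411 estimated reads, and the 11.4-fold ratio had a counting interval from 7.61 to 17.5. Only 24 of the 12507 compared genes, Dntt included, had a ratio this high. No 75-base window of the Dntt transcript occurred in a transcript of another gene.

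Rag2 (chromosome 2, 101624718 to 101632529, plus strand) had 0.126 FPKM in WT cells and 0.780 FPKM in KO cells. This rested on about 3 and 26 reads, which gave the 6.21-fold ratio an interval from 1.90 to 32.0, wide enough to reach below the 2-fold cut-off. Rag2 lies within the span of B230118H07Rik, a gene on the other strand that had 4.47 FPKM in WT cells and 11.8 FPKM in KO cells. The annotated transcripts of these genes shared 136 of the 3350 windows of Rag2, and the library kits do not keep the strand, so their reads cannot be fully told apart.

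Rag1 (chromosome 2, 101638282 to 101649501, minus strand) is separated from Rag2 by 5752 bases. It had 0.103 FPKM in WT cells and 0.0148 FPKM in KO cells, so that it stood opposite to Rag2 and under the floor in KO cells. These values fit 5 reads and 1 read, and the WT library was 6.98 times higher with an interval from 0.781 to 330. At this depth a difference in Rag1 was not detectable. The single read in KO cells lies under the 0.0448 FPKM that 3 reads would give, whereas the WT value lies above its limit of 0.0625 FPKM. Rag1 also lies within the span of B230118H07Rik, on the same strand, and shares 8 of its 6534 windows with it, so that the presence of Rag1 transcripts is not shown.

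The signaling chains of the pre-B cell receptor differed in level. Cd79b (chromosome 11, 106311341 to 106314762, minus strand) had 3.10 FPKM in WT cells and 17.8 FPKM in KO cells. With 28 and 227 estimated reads, the 5.73-fold ratio had an interval from 3.91 to 8.93. Its partner Cd79a (chromosome 7, 24897381 to 24902197, plus strand) was listed at 0 FPKM in WT cells and had 0.171 FPKM, about 2 reads, in KO cells. For Cd79a, 3 reads would correspond to 0.321 FPKM in WT cells and 0.229 FPKM in KO cells, so both values lie under that limit and no ratio is given. The Cd79a transcript shares 62 of its 1383 windows with Gm32220. The CD79 chains work as a pair, and here the transcript of only Cd79b was present above traces.

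The surrogate light chain genes lie side by side on chromosome 16, with Igll1 from 16860671 to 16863985 and Vpreb1 from 16868403 to 16870843, both on the minus strand and 4417 bases apart. Igll1 had 0.202 FPKM in WT cells and 0.433 FPKM in KO cells. Its 2.15-fold ratio had an interval from 0.536 to 12.3 with 3 and 9 estimated reads, and from 0.172 to 113 with 1 and 3 reads, the smallest whole reads that give this ratio. Vpreb1 had 0.476 FPKM in WT cells and 0.853 FPKM in KO cells, which fit 2 and 5 reads. Its ratio of 1.79 had an interval from 0.293 to 18.8. The WT values of Igll1 and Vpreb1 lie under the 0.205 and 0.713 FPKM that 3 reads would give. Neither difference was beyond counting error.

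Vpreb1 has a close copy, Vpreb2, that was listed at 0 FPKM in both libraries. Of the 699 windows of the Vpreb1 transcript, 136 occur in Vpreb2, so reads from there could have been given to either gene and the Vpreb1 values are uncertain in this respect. The span of Vpreb1 is also overlapped on the other strand by Top3b (28.8 FPKM in WT cells and 44.5 FPKM in KO cells). The Vpreb1 transcript shares no 75-base window with the annotated Top3b transcripts. Reads from unspliced Top3b RNA were not examined, and the library kits do not keep the strand. The related gene Vpreb3 had 0.339 FPKM, about 1 read, in WT cells and was listed at 0 FPKM in KO cells.

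Ebf1 (chromosome 11, 44617317 to 45008091, plus strand) and Pax5 (chromosome 4, 44524757 to 44710487, minus strand) were listed at 0 FPKM in both libraries. In the case of Ebf1, 3 reads would correspond to 0.0693 FPKM in WT cells and 0.0496 FPKM in KO cells. For Pax5 these limits were 0.0513 and 0.0368 FPKM. Neither transcript shared a 75-base window with another gene. Why Rpl11 and Rpl26 were listed at 0 was not tested, so this does not show that Ebf1 and Pax5 transcripts were absent.

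**Figure D3:**
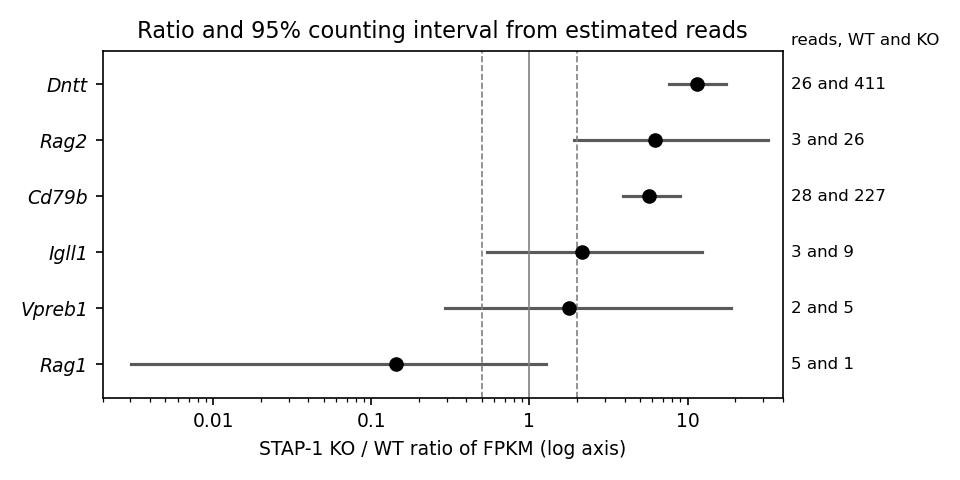
Ratio of FPKM in KO cells to FPKM in WT cells (horizontal axis, logarithmic) for the 6 genes above 0 in both, with 95% counting intervals as bars and estimated reads at the right. The intervals of Dntt and Cd79b lie above the dashed 2-fold line, that of Rag2 starts at 1.90, and those of Igll1, Vpreb1 and Rag1 include 1.

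The other genes of the pathway were described with lists, some of which share genes, using log2((STAP-1 KO + 0.1)/(WT + 0.1)) in FPKM, which understates the difference of low genes, and the median over genes whose mean reached 1 FPKM. Over all 10974 such genes the median log2 ratio was -0.04. It depended on transcript length, with 0.51 among the shortest transcripts (1300 bases or less) and -0.98 among the longest (6379 bases or more). With a correction for length and GC content the log2 ratio of Dntt went from 3.44 to 3.09, that of Cd79b from 2.48 to 2.21 and that of Rag2 from 1.96 to 1.59. Igll1 then had 0.47 and was no longer past the cut-off. For the list counts below, the shares over all 12507 compared genes were 12.3% higher and 22.9% lower.

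Of the 16 genes found for V(D)J recombination and end joining, 15 could be compared, 5 were higher and 1 was lower, with a median log2 ratio of 0.37. Beside Dntt and Rag2, the higher genes were Hmgb1 (42.8 FPKM in WT cells and 98.1 FPKM in KO cells) and Hmgb2 (34.5 and 78.2 FPKM), whose proteins bend DNA and assist the recombinase, and Xrcc6 (48.4 and 98.6 FPKM), which encodes the Ku70 subunit that holds broken ends. The log2 ratios of Hmgb1 and Hmgb2, 1.20 and 1.18, were 0.71 and 0.65 after the correction and no longer past the cut-off. Polm, a polymerase related to terminal deoxynucleotidyl transferase, was lower (3.19 and 1.16 FPKM).

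The list of the surrogate light chain and pre-B cell receptor held 15 genes, of which 9 could be compared. Igll1, within counting error on 3 and 9 estimated reads, and Cd79b were past the cut-off as higher, and 2 kinase genes were lower, with a median of -0.83. Without the genes of the 9, 0 of 6 were higher and 2 were lower. The kinases were Zap70, which relays antigen receptor signals (8.59 FPKM in WT cells and 0.581 FPKM in KO cells), and Lyn, a SRC family member (78.7 and 38.4 FPKM). With the correction the median was -0.27.

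Of the 20 B-lineage transcription factor genes, 14 could be compared, 3 were higher and 6 were lower, with a median of -0.62. Sox4, which supports pro-B cells, had 4.76 FPKM in WT cells and 28.1 FPKM in KO cells, Mef2c, a factor of lymphoid progenitors, had 4.02 and 13.8 FPKM, and the E protein gene Tcf4 had 2.86 and 6.84 FPKM. The main E protein gene of B lymphopoiesis, Tcf3, had 44.4 and 44.5 FPKM. Ikzf1, which encodes the lymphoid factor Ikaros, was lower with 46.6 and 11.9 FPKM, as were Foxo1 (5.37 and 1.43 FPKM), which acts upstream of the Rag genes, and Ikzf2 (5.76 and 1.97 FPKM). Foxo1 and Ikzf2 have long transcripts, and their log2 ratios of -1.84 and -1.50 were -0.89 and -0.87 after the correction.

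The list of inhibitors of E proteins and of lineage antagonists had a median of -0.24 over 13 genes, with 3 higher and 2 lower of 14 compared. Id2, which blocks E proteins, was lower with 896 FPKM in WT cells and 94.5 FPKM in KO cells, as was Gata2, a factor gene of progenitors and mast cells (409 and 55.2 FPKM). The related Id1 was higher (17.3 and 48.1 FPKM). Id3 (1.07 and 2.44 FPKM) was past the cut-off on 9 and 27 estimated reads, but the interval of its ratio, 0.981 to 5.19, included 1, and its log2 ratio of 1.11 was 0.73 after the correction. Cebpa, a myeloid factor gene, was higher (0.768 and 4.36 FPKM).

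Lymphoid priming genes lay on both sides. Of 19 genes compared, 6 were higher and 5 were lower, with a median of 0.19, and without Dntt and Rag2, which the list includes, 4 of 17 were higher. Cd27, a receptor of early lymphoid progenitors, had 4.39 FPKM in WT cells and 46.1 FPKM in KO cells. Among the cytokine receptor genes, Il7r, on whose product B cell precursors depend, was lower with 11.6 and 1.56 FPKM, and Crlf2 (the TSLP receptor) was lower with 41.9 and 8.59 FPKM. Flt3, the receptor gene of lymphoid-primed progenitors, was not past the cut-off with 7.62 and 6.54 FPKM, and the counting interval of its ratio, 0.712 to 1.03, included 1.

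**Figure D4:**
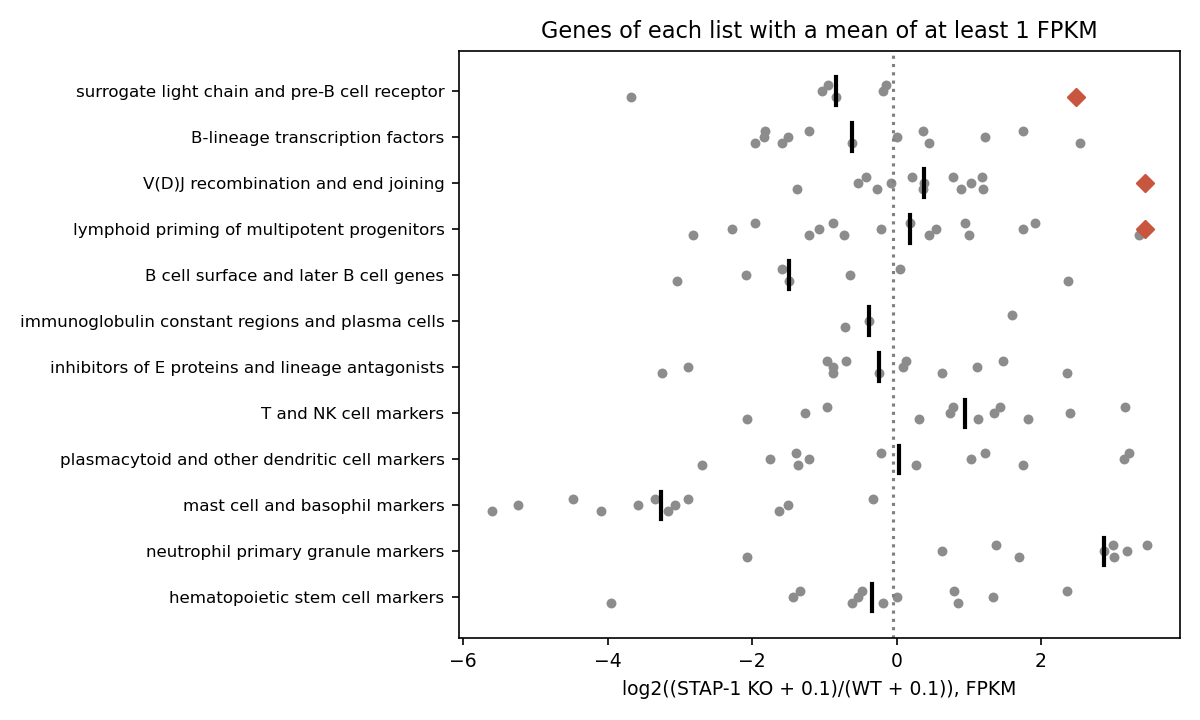
log2((STAP-1 KO + 0.1)/(WT + 0.1)) in FPKM (horizontal axis) of genes whose mean reached 1 FPKM in each of 12 lists; black bars are list medians, diamonds are Dntt and Cd79b and the dotted line is the median of all 10974 such genes. The lymphoid lists spread to both sides of the dotted line, whereas the mast cell and basophil markers lie below it and most neutrophil primary granule markers above it.

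Markers of other cells that could carry these transcripts were set beside them. In bulk RNA, fewer cells of a type and less RNA per cell cannot be told apart. Of 17 B cell surface and later B cell genes found, 9 could be compared, 1 was higher and 5 were lower, and Cr2 and Fcer2a were among those listed at 0 in both libraries. The higher gene was Cd72, a coreceptor gene (5.20 FPKM in WT cells and 27.3 FPKM in KO cells), and the lower genes included Cd74 (963 and 226 FPKM) and Ciita (2.49 and 0.215 FPKM), both of antigen presentation. The summed level of this list was 1227 FPKM in WT cells and 388 FPKM in KO cells, nearly all of it Cd74, Cd37 and Ptprc, which are not limited to B cells.

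Plasmacytoid dendritic cells can carry Dntt and Rag transcripts, and they also carry B220, one of the lineage markers of the study. Whether such cells were among the sorted cells was not tested. Of 18 dendritic cell markers, 13 could be compared, 5 were higher and 5 were lower, and their sum was 317 FPKM in WT cells and 1656 FPKM in KO cells. Most of the latter was Plac8, which early progenitors also express (149.8 and 1333 FPKM), with Bst2 (72.0 and 244 FPKM) and Cox6a2 (0.296 and 3.60 FPKM, about 1 and 18 reads) also higher. The lower ones included Itgax, which encodes CD11c (2.97 and 0.375 FPKM), and Xcr1, a receptor gene of conventional dendritic cells (6.85 and 1.96 FPKM). The other higher genes of this list were Tcf4 (2.86 and 6.84 FPKM) and Smim5 (16.8 and 34.5 FPKM). Siglech, a defining marker, had 0.122 and 0.0873 FPKM, about 2 reads in each, and Spib was listed at 0 in both.

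Among 25 T and NK cell markers, 19 could be compared, and 8 were higher and 4 lower, beside 12.3% and 22.9% of all compared genes. Their median was 0.95, and 0.61 after the correction for length and GC content. Trat1 (0.561 FPKM in WT cells and 5.82 FPKM in KO cells), Lck (11.8 and 41.9 FPKM) and Cd2 (0.285 and 1.94 FPKM) were higher. Cd2 rested on about 2 and 19 estimated reads, and its ratio had an interval from 1.64 to 60.2. Cd3g (1.80 and 5.04 FPKM, 31 and 123 estimated reads) and Thy1 (1.75 and 4.63 FPKM) were higher too. The log2 ratio of Cd3g, 1.44, was 0.83 after the correction. Tcf7, Cd4 and Cd5 were also higher, but the intervals of Cd4 and Cd5 included 1. The granzyme genes Gzmb (9642 and 2302 FPKM) and Gzma (21.1 and 8.70 FPKM) were lower. Ptcra and Cd8b1 were listed at 0 in both libraries. Lck and Cd2 are not limited to T cells, and the sum of the list, 10333 and 3283 FPKM, was mostly Gzmb. Whether T-lineage cells were among the sorted cells was not tested.

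Of the 12 lists, the mast cell and the neutrophil markers had the medians farthest from 0. Of 12 mast cell and basophil markers, 11 were lower and none was higher in KO cells, and their sum made up 8.07% of all FPKM in WT cells and 0.886% in KO cells. Of 9 neutrophil primary granule markers, 7 were higher and 1, Srgn, which mast cells also express, was lower, with a median of 2.87. Their sum was 7299 FPKM in WT cells, most of it Srgn (6691 FPKM), and 6320 FPKM in KO cells. Mpo had 248 FPKM in WT cells and 1973 FPKM in KO cells. The log2 ratio of Mpo was 2.99 and that of Ms4a3, the highest of the list, was 3.47, beside 3.44 for Dntt and 2.48 for Cd79b. The part of the cell mixture in the ratios of Dntt, Cd79b and Rag2 was not tested. The genes of the sorting antigens, Kit (468 and 30.1 FPKM), Ly6a (285 and 106 FPKM) and Ptprc (107 and 38.2 FPKM), were themselves lower in KO cells. Cd34, a progenitor gene not used in the sort, had 281 and 194 FPKM.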

How the data were processed

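RNA-seq was analysed in 1 WT and 1 STAP-1 KO library of GFP+ CD45.2+ LSK cells. The authors deposited FPKM values, made from 75-base single reads with TopHat2 2.0.13, Bowtie2 2.2.3, SAMtools and Cufflinks (Cuffnorm) 2.2.1 on mm10. SAMtools is version 0.1.19 in the submitters' processing notes and another version in the methods. The gene annotation and the library scaling are not given in the sources used here.

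From these values, ratios of the libraries were computed in Python 3.11.15 (pandas 2.3.3, scipy 1.17.1, numpy 2.4.6). The 2-fold cut-off was applied without a pseudocount to genes that reached 0.1 FPKM in each library. Log2 ratios used a pseudocount of 0.1 FPKM. No test of the genotype was possible. Depth was estimated from the steps of values below 0.3 FPKM, of which 47.5% (WT) and 48.6% (STAP-1 KO) lay within 0.01 of a whole read, after 212 and 208 bases were taken off each transcript. Whole reads for a ratio were accepted within 0.5%. Length and GC content were corrected over 20 bins each. Symbols were matched to GENCODE M21 (GRCm38), 20911 as written and 1901 through an older symbol, with 472 unmatched. Calls, steps and correction were tested on simulated data.

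The 9 genes and the 12 lists were chosen with earlier results of these data known. Named genes are the 9, Stap1, Kit, Ly6a, Ptprc and Cd34, Vpreb2 and Vpreb3, and up to 5 further genes per list past the cut-off with the largest ratio at a pseudocount of 1 FPKM. Other genes are named where a sentence needed them, and were chosen after their values were seen. Of 188 list genes, 13 were not analysed here, mostly immunoglobulin constant regions. Alternatives changed the floor, pseudocount, fold cut-off, scaling, correction and read minimum. A floor in either library was added after seeing the data. Some list genes are not reported here by name.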

Additional observations from a re-analysis of the deposited data

How the results depend on the processing

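The count of 4 higher genes of the 9, with 5 compared, was 2 (Dntt and Cd79b) with a floor of 0.5 or 1 FPKM. At these floors only these 2 could be compared, and 11.1% and 10.6% of all compared genes were higher. With a pseudocount of 1 FPKM the count was also 2, of 5 compared, beside 8.12% of all compared genes. Under the other 9 alternatives it was between 3 and 5. With the floor in either library, chosen after seeing the data, Cd79a took the place of Igll1. The count of 0 lower genes became 1 (Rag1) with no floor. Of the 135 other list genes compared, 35 were higher and 44 lower, beside 12.3% and 22.9% of all compared genes. With a 4-fold cut-off 14 list genes were higher and 21 lower, beside 2.40% and 8.56% of all compared genes. The other 11 alternatives stayed within 1.5 times of each count. Dntt and Cd79b were past the cut-off under all 12 alternatives and Rag2 under 9. The log2 ratio of Rag2 was 0.66 at a pseudocount of 1 FPKM, which reflects its low level. Depth limits Vpreb1, Igll1, Cd79a and Rag1, which rest on fewer than 10 reads in each library. No paired analysis was possible because each genotype has 1 library.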

Other observations

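The markers of hematopoietic stem cells, from which lymphoid progenitors arise, were mixed. Of 14 genes compared, 2 were higher and 4 lower in KO cells, with a median log2 ratio of -0.33 over 12 genes. Hoxa9, a homeobox factor gene of early progenitors, had 0.452 FPKM in WT cells and 2.73 FPKM in KO cells, and Slamf1, which encodes CD150, had 3.39 and 8.67 FPKM. Mecom, which encodes a transcription factor of stem cells, was lower (4.08 and 1.56 FPKM). The log2 ratio of Mecom, -1.33, became -0.86 and was no longer past the cut-off after the correction for length and GC content.

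Of the genes for antibody constant regions and plasma cells, 6 were found and 4 had 0.1 FPKM or more in each library. The antibody joining chain gene Igj was higher (2.18 FPKM in WT cells and 6.81 FPKM in KO cells), and Prdm1, which encodes the plasma cell factor BLIMP-1, was lower (0.676 and 0.194 FPKM).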
